A study of Mus musculus with 6 samples.

Results

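The genes described here are 10 genes that earlier work on limb, placenta and genital development linked to *Hoxa13*, chosen by name as the rows of the count tables whose symbol is *Bmp2*, *Bmp7*, *Epha4*, *Epha6*, *Epha7*, *Tbx5*, *Aldh1a2*, *Enpp2*, *Sostdc1* or *Hand2*. All 10 were found among the 24393 features of each table. They were read in non-differentiated KH2 mouse embryonic stem cells (mESCs; the strain label is C57/BL/6), in 3 control cultures (genotype label CONTROL) and 3 cultures carrying human *HOXA13* (genotype label HOXA13). KH2 cells carry the doxycycline-responsive transactivator at *Rosa26* and a docking site beside *Col1a1*, and in the *HOXA13* clones a FLAG-tagged human *HOXA13* gene was placed there under doxycycline control. By the study's methods, targeted clones were tested for induction with doxycycline, and biological replicates of both groups were then picked. The sample labels state that no treatment was applied, and whether the sequenced cultures received doxycycline, how many clones they came from and what insert the control cells carry are not given in the sources used here. All 6 cultures were kept with LIF on irradiated 3T3-Swiss albino fibroblasts as feeder cells, so that counts of mouse genes include feeder RNA in an unknown share.

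HOXA13 is a homeodomain transcription factor of the most posterior HOX group. In the mouse embryo it is needed for the digits, the genital tubercle, the hindgut and the vessels of the umbilicus and placental labyrinth. The 10 genes fill different roles there. *Bmp2* and *Bmp7* encode secreted bone morphogenetic proteins that act in digit separation and in the genital tubercle, *Sostdc1* encodes a secreted antagonist of BMP and Wnt signaling, and *Epha4*, *Epha6* and *Epha7* encode Eph receptor tyrosine kinases that sort cells by contact with ephrins. *Tbx5* and *Hand2* encode transcription factors of the limb bud and heart, *Aldh1a2* the main enzyme of embryonic retinoic acid synthesis, and *Enpp2* autotaxin, which makes the signaling lipid lysophosphatidic acid (LPA). None of these tissues is present in a stem cell culture, and the question was how these genes stood in mESCs with and without *HOXA13*.

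Total counts ranged from 14608681 to 21766589 in control and from 13494135 to 20374341 in *HOXA13* libraries. Expression is given as CPM, read counts scaled by library size with TMM factors, and 3 counts in a library correspond to between 0.134 and 0.227 CPM. The human Ensembl feature ENSG00000106031, which checks the labels, was read 6, 0 and 0 times in the control cultures and 4298, 4177 and 2881 times where *HOXA13* was labelled. No table used here pairs this identifier with a symbol. Mouse *Hoxa13* averaged 1.11 ± 0.43 CPM in control cultures and 1.55 ± 0.25 CPM in *HOXA13* cultures (SD, n = 3 each), with an adjusted p of 0.295 in edgeR. Of the 13846 genes tested with edgeR's quasi-likelihood test, 3836 (27.7%) had a Benjamini-Hochberg adjusted p under 0.05, 1994 higher and 1842 lower in *HOXA13* cultures, or 1576 higher and 2500 lower when libraries were scaled by their size alone. All 12 embryonic stem cell markers on a list were expressed and summed to between 3852 and 4769 CPM in control and between 4257 and 4353 CPM in *HOXA13* libraries. Within this sum 7 of the 12 changed, with *Klf4* (log2 fold change 1.14), *Esrrb*, *Nanog* and *Sox2* higher and *Lin28a* (-1.16), *Tdgf1* (-1.09) and *L1td1* lower, and the count was 4 when any 1 of the *HOXA13* libraries was left out. The 20 feeder fibroblast markers summed to between 16946 and 23974 CPM in control and between 21539 and 26006 CPM in *HOXA13* libraries, 0 of 20 passed the test in edgeR (2 at an unadjusted p under 0.05), and DESeq2 called 2 and limma-voom 0. Markers of primitive endoderm (6 tested, 2 higher and 1 lower) summed to between 39.3 and 43.2 CPM in control and between 49.1 and 50.7 CPM in *HOXA13* libraries, and those of trophoblast (7 tested, 4 higher and 1 lower) to between 78.7 and 163.0 CPM and between 258.6 and 265.1 CPM. The endoderm count of 3 fell to 1 without *HOXA13* replicate 1 or *HOXA13* replicate 2 and rose to 5 without control replicate 2. The part of such cells in the results was not tested.

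Of the 10 genes, 8 had enough counts to be tested and 3 of these changed. *Bmp7* was higher, and *Bmp2* and *Enpp2* were lower, in *HOXA13* cultures. Over all genes tested the share called was 27.7% (14.4% higher, 13.3% lower), so that 3 calls among 8 genes are no result about this set. Without control replicate 3, *HOXA13* replicate 1 or *HOXA13* replicate 2 only *Enpp2* was called. The 3 changed genes were also the 3 whose groups of libraries did not overlap, beside 45.7% of all genes tested (23.5% higher, 22.2% lower). The 8 tested genes had between 17 and 856 counts in every library, so that none passed the filter on low counts through 1 group alone. Their median log2 fold change was -0.09, beside 0.00 over all genes tested. The remaining pair, *Epha6* and *Sostdc1*, had at most 5 counts in any library and got no test.

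**Figure D1:**
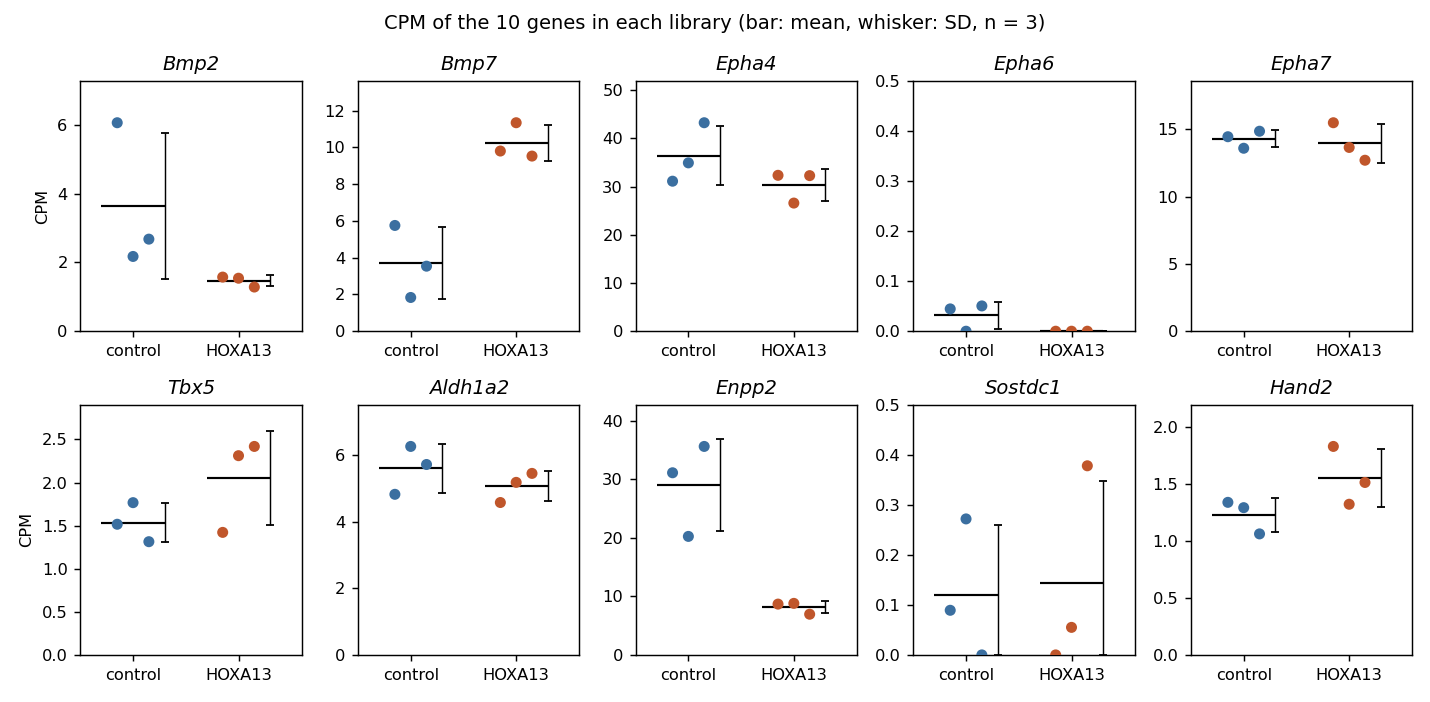
CPM of each of the 10 genes (vertical axes, linear from 0, a scale for each gene) in the 3 control (blue) and 3 HOXA13 (orange) libraries, with the mean as a bar and the SD as a whisker that stops at 0. The groups are apart for Bmp2, Bmp7 and Enpp2 and overlap for the other genes, and Epha6 and Sostdc1 stay under 0.5 CPM throughout.

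The BMP ligands moved in opposite directions. *Bmp2* (chromosome 2 of mm9, 133377895 to 133388621) is a BMP of the class that signals through BMPR1A and BMPR2. Control replicates 1, 2 and 3 had 6.06, 2.17 and 2.68 CPM, and the *HOXA13* libraries followed at 1.57, 1.54 and 1.29 CPM. Each *HOXA13* library was thus below each control library, and control replicate 1 stood well above the other control libraries. The mean fell from 3.64 ± 2.12 CPM (SD, n = 3) to 1.47 ± 0.16 CPM (SD, n = 3), a log2 fold change of -1.32 (standard error 0.40, 95% interval -2.24 to -0.39, edgeR adjusted p = 0.0422). This call was the least stable of the 3. Leaving out any library other than control replicate 2 ended it, as did limma-voom (adjusted p = 0.0753), and without control replicate 1 the log2 fold change was -0.72 (edgeR adjusted p = 0.0575). Over the 15 alternatives the adjusted p lay between 0.00757 and 0.131.

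*Bmp7* (chromosome 2, 172693513 to 172765822) belongs to the class of BMPs that prefers the receptor ACVR1 and is the member whose loss affects digits, kidney and eye in the mouse. Control replicates 1, 2 and 3 had 5.75, 1.83 and 3.54 CPM, against 9.80, 11.3 and 9.52 CPM in the *HOXA13* libraries. The lowest *HOXA13* library was 1.66 times the highest control library. The mean rose from 3.71 ± 1.96 CPM (SD, n = 3) to 10.2 ± 0.98 CPM (SD, n = 3), a log2 fold change of 1.43 (standard error 0.33, 95% interval 0.67 to 2.19, edgeR adjusted p = 0.0146). The call was lost without control replicate 3 (edgeR adjusted p = 0.0603), without *HOXA13* replicate 1 (0.0629) and without *HOXA13* replicate 2 (0.0646), while the log2 fold change stayed between 1.12 and 1.89 in all 15 alternatives (adjusted p between 0.000127 and 0.0646).

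Set side by side per kilobase of exon, the balance of the ligands differed between the groups. The ratio of *Bmp7* to *Bmp2*, each as CPM per kilobase, was 0.84, 0.75 and 1.17 in control and 5.51, 6.51 and 6.56 in *HOXA13* libraries. *Bmp7* was thus near or below *Bmp2* in control libraries and several times above it in *HOXA13* libraries. This ratio was chosen after both genes had been seen, and it has no test of its own.

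Control cultures differed among themselves in both ligands, in the same order as in their content of primitive streak RNA. A list of 12 markers of the primitive streak and early mesoderm summed to 444, 52.0 and 200.4 CPM in control replicates 1, 2 and 3 and to between 34.4 and 37.6 CPM in *HOXA13* libraries. Of its 10 tested genes, 5 were lower in *HOXA13* cultures (13.3% of all genes were lower, and limma-voom called 0 of the 10), among them *T*, the brachyury gene, at 180.9, 10.5 and 85.2 CPM in control and between 1.37 and 2.48 CPM in *HOXA13* libraries. *Bmp2* and *Bmp7* were both highest in control replicate 1 and lowest in control replicate 2, by 2.79 and 3.14 times. This shared order rests on 3 libraries and is a description only. *Bmp2* was also close in control replicates 2 and 3 (2.17 and 2.68 CPM). Between the groups, *Bmp2* was lower where the streak markers were lower and *Bmp7* was higher. The part of streak-like cells in these values was not tested, and in bulk RNA fewer cells of a type and less RNA per cell cannot be told apart.

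**Figure D2:**
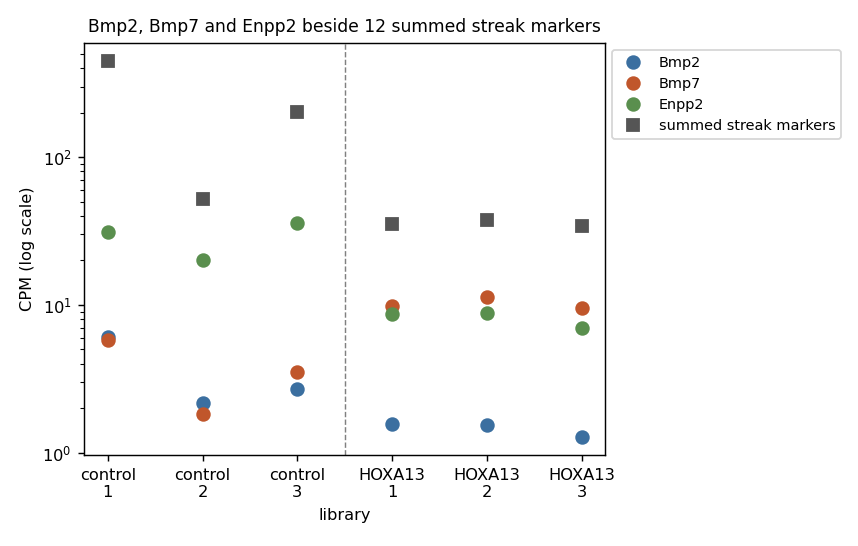
CPM on a log scale (vertical axis) of Bmp2, Bmp7 and Enpp2 and of the 12 summed streak markers in each of the 6 libraries (horizontal axis). Across the control libraries the streak markers run from 52.0 to 444 CPM, with Bmp2 and Bmp7 in the same order, while in HOXA13 libraries Bmp7 lies above every control value and Bmp2 below.

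Among 14 other BMP ligands and receptors, 11 were tested, 1 was higher and 2 were lower (27.7% of all genes were called), and their median log2 fold change was -0.24. *Bmp6*, a ligand close to *Bmp7*, fell from 0.94 ± 0.17 to 0.35 ± 0.042 CPM (log2 fold change -1.43, standard error 0.33, edgeR adjusted p = 0.0144). It passed the filter on low counts through its control libraries, since the *HOXA13* libraries held only 0.36, 0.39 and 0.30 CPM. With a minimum of 10 counts in all libraries *Bmp6* had no test. The type I receptor gene *Bmpr1b* fell from 5.62 ± 1.42 to 3.31 ± 0.28 CPM (log2 fold change -0.77, edgeR adjusted p = 0.0322). These calls were lost in 5 of 14 and 6 of 15 alternatives. The type II receptor gene *Bmpr2* rose from 89.0 ± 10.5 to 121 ± 5.93 CPM (log2 fold change 0.45, edgeR adjusted p = 0.00982). *Bmpr2* lies on chromosome 1, where the median over 778 tested genes was 0.38 on the log2 scale, and after centring every chromosome its own log2 fold change was 0.07 (edgeR adjusted p = 0.465). Its call was also lost without *HOXA13* replicate 1 (0.0559). The count of 3 fell to 0 without *HOXA13* replicate 1, to 1 without *HOXA13* replicate 2, *HOXA13* replicate 3 or control replicate 3, and rose to 6 without control replicate 2.

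*Sostdc1* (chromosome 12, 37040756 to 37045039), the antagonist, was read 2, 4 and 0 times in the control cultures and 0, 1 and 5 times in the *HOXA13* cultures. With 6 counts in each group and no library above 5, a difference was not detectable at this depth. Of 16 other secreted BMP and Wnt antagonists and LRP receptors, 13 were tested, 0 were higher and 4 were lower in edgeR (8 of the 13 had an unadjusted p under 0.05, in either direction, and DESeq2 called 0 higher and 4 lower). The share called, 30.8%, was near the 27.7% over all genes. Their median log2 fold change was -0.23. *Nog*, which binds and blocks BMPs, fell from 2.34 ± 1.18 to 0.82 ± 0.25 CPM (log2 fold change -1.53, standard error 0.43, edgeR adjusted p = 0.0316), a call lost in 6 of 15 alternatives, that is with the replicate block (0.0721) and without any 1 library other than control replicate 2. *Lrp4*, a receptor that binds SOSTDC1, fell from 11.6 ± 3.68 to 4.65 ± 0.037 CPM (log2 fold change -1.32, standard error 0.23, edgeR adjusted p = 0.00408). *Fst* and *Twsg1*, which bind activins and BMPs, were the other lower genes. Without control replicate 2 the count was 8, of which 7 were lower.

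*Enpp2* (chromosome 15, 54670453 to 54751701) showed the largest log2 fold change of the 8 tested genes. Control replicates 1, 2 and 3 had 31.1, 20.2 and 35.6 CPM, and the *HOXA13* libraries 8.68, 8.81 and 6.95 CPM. The lowest control library was 2.30 times the highest *HOXA13* library. The mean fell from 29.0 ± 7.90 CPM (SD, n = 3) to 8.15 ± 1.04 CPM (SD, n = 3), a log2 fold change of -1.83 (standard error 0.21, 95% interval -2.31 to -1.34, edgeR adjusted p = 0.000681), or 3.55-fold lower. This call was past 0.05 in all 15 alternatives, with log2 fold changes between -2.03 and -1.66 and adjusted p between 2.55e-15 and 0.00948. Among control libraries *Enpp2* was lowest in replicate 2, like *Bmp2* and *Bmp7*, and highest in replicate 3, where these were highest in replicate 1.

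Of 9 other genes of the LPA pathway, 8 were tested, 1 was higher and 3 were lower (14.4% and 13.3% over all genes), with a median log2 fold change of 0.14. The receptor gene *Lpar2* fell from 34.4 ± 11.5 to 14.8 ± 1.11 CPM (log2 fold change -1.23, standard error 0.22, edgeR adjusted p = 0.00522). The receptor gene *Lpar4* fell from 34.3 ± 6.93 to 16.7 ± 0.80 CPM (log2 fold change -1.04, standard error 0.15, edgeR adjusted p = 0.00188). The receptor gene *Lpar6* rose from 18.6 ± 6.49 to 45.5 ± 2.58 CPM (log2 fold change 1.31, standard error 0.21, edgeR adjusted p = 0.00315). *Lpar2* and *Lpar4* thus moved with *Enpp2*, and *Lpar6* against it, and these calls were past 0.05 in all 15 alternatives. *Lpar6* lies on chromosome 14, where the median over tested genes was 0.26 on the log2 scale, and after centring its log2 fold change was 1.05. The third lower gene, listed under its older symbol *Ppap2c* (now *Plpp2*), encodes a phosphatase that breaks LPA down.

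**Figure D3:**
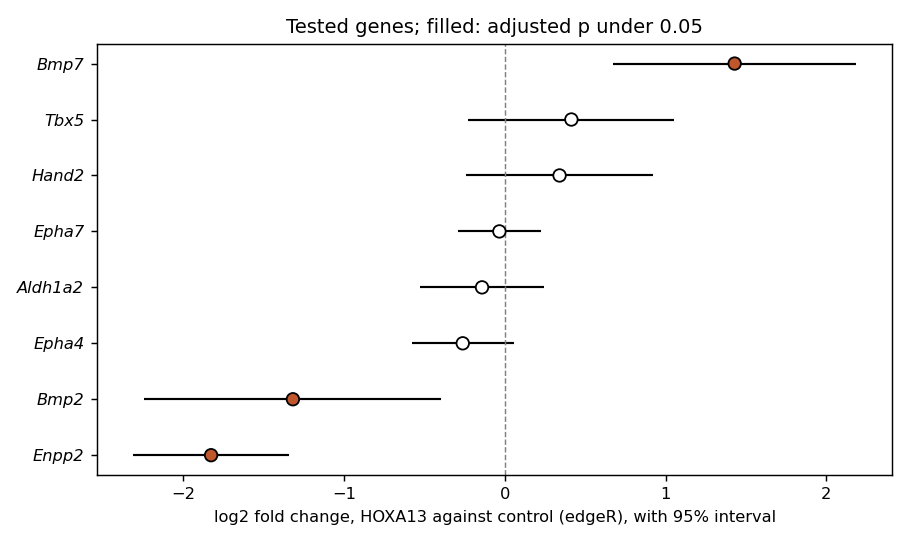
Log2 fold change of HOXA13 against control cultures (horizontal axis) for the 8 tested genes, with 95% intervals computed from the edgeR fit as lines and filled points for an adjusted p under 0.05. The intervals of Bmp7, Bmp2 and Enpp2 exclude 0, and those of the other 5 genes include it.

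The Eph receptor genes among the 10 did not pass the test. *Epha4* (chromosome 1, 77363760 to 77511663), which guides motor axons in the limb, was at 31.1, 34.9 and 43.3 CPM in control and at 32.3, 26.6 and 32.3 CPM in *HOXA13* libraries. Control replicate 1 lay inside the range of the *HOXA13* libraries. The log2 fold change was -0.26 (standard error 0.14, 95% interval -0.58 to 0.05, edgeR adjusted p = 0.196). The value depends on how chromosome 1 is read, since the median of its genes was above the control mean by between 0.36 and 0.41 on the log2 scale in the 3 *HOXA13* libraries, and 56.2% of its tested genes were called. The log2 fold change of *Epha4* was lower than that of all but 11.7% of the genes on that chromosome. After centring every chromosome in every library it was -0.64 (edgeR adjusted p = 0.00912), and without control replicate 1 it was -0.37 (edgeR adjusted p = 0.0408). In the other 13 alternatives *Epha4* was not past 0.05 (adjusted p up to 0.537).

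*Epha7* (chromosome 4, 28740281 to 28894649), which marks distal limb mesenchyme, had nearly the same level in all libraries. It was at 14.4, 13.6 and 14.9 CPM in control and at 15.5, 13.7 and 12.7 CPM in *HOXA13* libraries, and the *HOXA13* range enclosed the control range. The log2 fold change was -0.03 (standard error 0.11, edgeR adjusted p = 0.852), and its 95% interval of -0.29 to 0.22 leaves out changes as large as those of *Bmp2*, *Bmp7* or *Enpp2*. *Epha6* (chromosome 16, 59653309 to 60605357) was read 1, 0 and 1 times in the control cultures and 0 times in every *HOXA13* culture. These counts are at or under the floor in both groups, and no fold is given. The transcript *Gm9017* on the opposite strand overlaps *Epha6* exons in the annotation, and the strand setting of the counting is not given.

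Of 19 other Eph receptors and ephrins, 16 were tested, 3 were higher, 6 were lower and 7 did not pass the test (27.7% of all genes were called), with a median log2 fold change of -0.46. *Epha2*, a receptor kinase of epithelia and of mESCs, was at 277, 316 and 258 CPM in control and at 110, 121 and 127 CPM in *HOXA13* libraries (log2 fold change -1.25, standard error 0.09, edgeR adjusted p = 8.19e-05). *Epha8* fell from 2.41 ± 1.42 to 0.54 ± 0.16 CPM (log2 fold change -2.16, standard error 0.52, edgeR adjusted p = 0.0173), a call lost in 4 of 14 alternatives. With a minimum of 10 counts in all libraries *Epha8* had no test. *Efna1*, which encodes an ephrin ligand of EPHA2, rose from 3.23 ± 0.67 to 6.46 ± 0.75 CPM (log2 fold change 1.01, standard error 0.20, edgeR adjusted p = 0.0082). *Ephb3* rose from 28.4 ± 3.13 to 38.7 ± 3.26 CPM (log2 fold change 0.45, edgeR adjusted p = 0.0169), a call lost without *HOXA13* replicate 1 (0.0791) or replicate 2 (0.0632). *Epha2* and *Efna1* were past 0.05 in all 15 alternatives, whereas the count of 9 fell to 4 without *HOXA13* replicate 1 or 2, and to 5 without *HOXA13* replicate 3 or control replicate 3.

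The transcription factor genes were expressed at low levels in both groups. *Tbx5* (chromosome 5, 120284672 to 120335227), which starts forelimb outgrowth, was at 1.52, 1.77 and 1.31 CPM in control and at 1.42, 2.31 and 2.42 CPM in *HOXA13* libraries. *HOXA13* replicate 1 lay inside the control range, and the log2 fold change of 0.41 (standard error 0.28, 95% interval -0.23 to 1.06, edgeR adjusted p = 0.308) did not exceed the replicate spread. Its neighbour *Tbx3*, which ends 149.9 kilobases before *Tbx5* on mm9, was at 33.4, 66.8 and 40.7 CPM in control and at 199, 173 and 182 CPM in *HOXA13* libraries (log2 fold change 1.98, standard error 0.23, edgeR adjusted p = 0.000636). These T-box genes, side by side on the chromosome, thus had very different levels, and the call for *Tbx3* held in all 15 alternatives.

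*Hand2* (chromosome 8, 59799780 to 59803314), which acts upstream of *Shh* in the posterior limb bud, was at 1.34, 1.29 and 1.06 CPM in control and at 1.83, 1.32 and 1.51 CPM in *HOXA13* libraries. The groups overlapped at *HOXA13* replicate 2, and the log2 fold change was 0.34 (standard error 0.25, 95% interval -0.24 to 0.92, edgeR adjusted p = 0.354). With between 19 and 36 counts in a library, this interval holds both a small fall and a rise of up to 0.92 on the log2 scale.

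Promoter sequences of 5 of the 10 genes (*Epha4*, *Epha6*, *Epha7*, *Aldh1a2* and *Hand2*) were held by a RefSeq table on GRCm38.p6, which covers 250 bases before to 50 bases after each start. *Bmp2*, *Bmp7*, *Enpp2*, *Tbx5* and *Sostdc1* had no entry. The letters CAATAAA and TCGTAAA, which belong to DNA motifs known for HOX proteins of group 13 and both end in TAAA, were searched on both strands. CAATAAA was found in the windows of *Hand2* and *Epha6* and in 4.6% of all 32851 windows, and TCGTAAA was found in none of the 5 genes and in 0.597% of all windows. Both windows with a match are shown, the first of a gene at about 1 CPM and the second of a gene at the detection floor, with the match in capitals (TTTATTG is CAATAAA read on the other strand). The match began 97 bases before the start of *Hand2* and 171 bases before that of *Epha6*. *Hand2* did not pass the test between the groups and *Epha6* had too few counts for one. A match is a description of letters and does not show binding.
Hand2 promoter (chr8:57320733-57321032, plus strand): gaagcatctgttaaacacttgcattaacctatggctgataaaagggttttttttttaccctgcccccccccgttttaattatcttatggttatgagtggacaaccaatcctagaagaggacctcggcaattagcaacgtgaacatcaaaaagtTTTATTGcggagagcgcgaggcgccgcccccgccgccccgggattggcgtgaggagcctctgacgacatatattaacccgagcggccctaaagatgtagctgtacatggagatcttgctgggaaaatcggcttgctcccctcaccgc
Epha6 promoter (chr16:60605482-60605781, minus strand): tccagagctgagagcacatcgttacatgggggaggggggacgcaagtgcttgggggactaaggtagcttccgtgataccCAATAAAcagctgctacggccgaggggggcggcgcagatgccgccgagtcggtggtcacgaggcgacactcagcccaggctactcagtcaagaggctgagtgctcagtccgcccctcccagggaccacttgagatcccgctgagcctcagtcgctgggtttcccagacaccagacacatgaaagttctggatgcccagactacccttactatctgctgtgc

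Among 28 other regulators of the limb bud, 27 were tested, 2 were higher and 3 were lower (1 and 4 when libraries were scaled by size alone), a share of 18.5% beside 27.7% over all genes, with a median log2 fold change of 0.14. Besides *Tbx3*, the zinc finger gene *Sall4* was higher, from 327 ± 23.3 to 382 ± 0.81 CPM (log2 fold change 0.22, edgeR adjusted p = 0.0394), a call lost in 6 of 15 alternatives, among them library size alone (0.116) and the replicate block (0.0657). *Fgf8*, the growth factor of the limb ridge that is also on the streak list, was at 42.9, 2.92 and 18.4 CPM in control libraries and under the floor of 3 counts in all 3 *HOXA13* libraries (edgeR adjusted p = 0.00336, limma-voom adjusted p = 0.0583). The control libraries differ so widely in *Fgf8* that no fold is given. *Sall1* fell from 222 ± 38.3 to 153 ± 4.42 CPM (log2 fold change -0.54, edgeR adjusted p = 0.00973), a call lost without *HOXA13* replicate 1 (0.0578) or replicate 2 (0.0510), and *Grem1* was the other lower gene. *Hoxd13*, *Hoxd12*, *Hoxd11* and *Hoxa11*, the HOX genes active beside *Hoxa13* in the limb, had adjusted p-values between 0.320 and 0.855 in edgeR. The count of 5 fell to 3 without *HOXA13* replicate 1 or *HOXA13* replicate 2.

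*Aldh1a2* (chromosome 9, 71063596 to 71144050) was at 4.82, 6.25 and 5.71 CPM in control and at 4.57, 5.17 and 5.44 CPM in *HOXA13* libraries. The groups overlapped, and the log2 fold change was -0.14 (standard error 0.17, 95% interval -0.53 to 0.25, edgeR adjusted p = 0.574). Of 18 other genes of retinoic acid synthesis, transport and response, 15 were tested, 3 were higher, 4 were lower and 8 did not pass the test (27.7% of all genes were called), with a median log2 fold change of -0.29. The balance of directions depended on the setting. It was 1 higher and 6 lower under library size alone, and 1 and 5 with DESeq2. With the replicate block it was 1 and 4, and with every chromosome centred 2 and 4. The receptor gene *Rarb*, itself a target of retinoic acid, rose from 0.81 ± 0.13 to 1.70 ± 0.30 CPM (log2 fold change 1.10, edgeR adjusted p = 0.0186). *Rarb* lies on chromosome 14, where the median over tested genes was 0.26 on the log2 scale. After centring every chromosome its log2 fold change was 0.81 (edgeR adjusted p = 0.0488). *Aldh1a7*, an aldehyde dehydrogenase gene close to *Aldh1a1* with which it can share reads, rose from 0.61 ± 0.17 to 1.22 ± 0.092 CPM (log2 fold change 0.98, edgeR adjusted p = 0.0434). The receptor gene *Rxrg*, on chromosome 1, fell from 1.80 ± 0.62 to 0.62 ± 0.35 CPM (log2 fold change -1.52, edgeR adjusted p = 0.0337). Of these 3 calls, *Rarb* was lost in 4 of 15 alternatives, and *Rxrg* and *Aldh1a7* in 3 and 9 of the 14 that gave a value. The count of 7 fell to between 3 and 4 without any 1 of the *HOXA13* libraries.

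**Figure D4:**
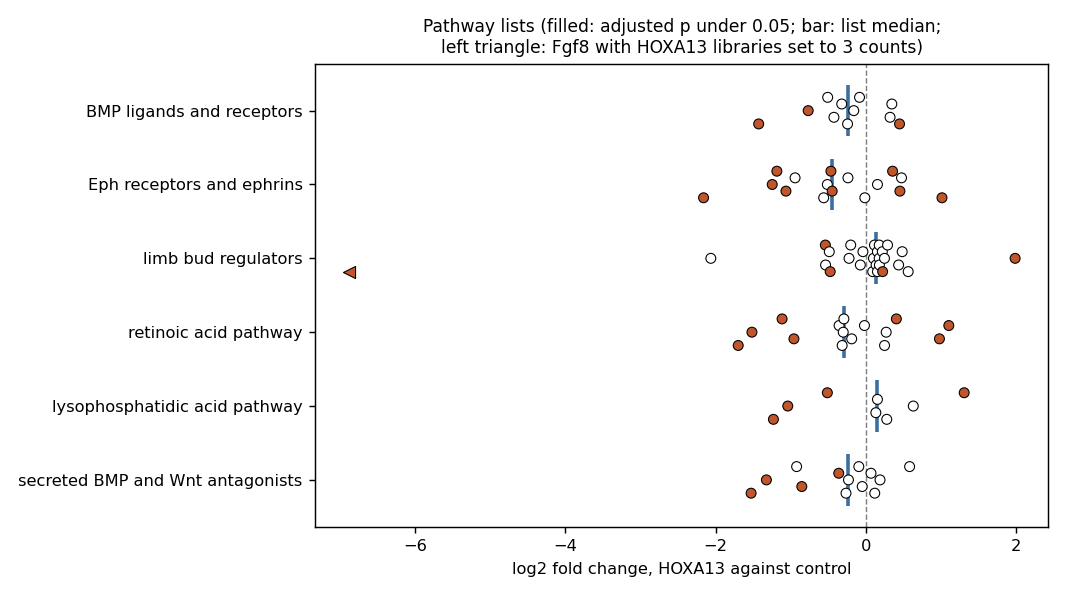
Log2 fold change of HOXA13 against control cultures (horizontal axis) of each tested gene in 6 lists of related genes, with filled points for an edgeR adjusted p under 0.05 and a blue bar at each list's median. The list medians lie between -0.46 and 0.14, and the left triangle shows Fgf8 with the HOXA13 libraries set to 3 counts each.

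Placed on 1 scale, as CPM per kilobase of exon, *Enpp2* was the highest of the 10 genes in control cultures at 8.35 ± 2.28 (SD, n = 3), and its range overlapped that of *Epha4* (5.76 ± 0.98). *Aldh1a2* (2.47 ± 0.32) followed without overlap, and then *Epha7* (1.45 ± 0.065), *Bmp2* (1.02 ± 0.60), *Bmp7* (0.92 ± 0.49) and *Hand2* (0.55 ± 0.066), each of which overlapped the next. *Tbx5* (0.39 ± 0.058) lay below *Hand2* without overlap. In *HOXA13* cultures the order was *Epha4* (4.80 ± 0.52), *Bmp7* (2.54 ± 0.24), *Enpp2* (2.35 ± 0.30) and *Aldh1a2* (2.24 ± 0.20), where the last 3 overlapped. *Epha7* (1.41 ± 0.14), *Hand2* (0.70 ± 0.11), *Tbx5* (0.52 ± 0.14) and *Bmp2* (0.41 ± 0.045) came after them. Of these, *Hand2* overlapped *Tbx5*, and *Tbx5* overlapped *Bmp2*. By these means *Bmp7* moved from rank 6 to rank 2 and *Bmp2* from rank 5 to rank 8, though both overlapped neighbouring ranks in each group. *Sostdc1* and *Epha6* were last in both groups. The exon lengths come from an annotation that need not be the one used for counting.

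The genes whose log2 CPM followed each changed gene most closely over the 6 libraries, among tested genes whose mean log2 CPM was 1 or more, are given as a description. They were *Bptf*, *Igtp* and *Lsm11* for *Bmp2* (Pearson's r of 0.996, 0.995 and 0.995), *Zic5*, *Egln3* and *Pisd-ps2* for *Bmp7* (0.998, 0.997 and 0.996), and *Mapk3*, *Nhs* and *Trerf1* for *Enpp2* (0.998, 0.997 and 0.997). The points share the 2 groups of libraries, so that any gene that differs between the groups and varies alike among the control cultures scores high. *Igtp*, an interferon-induced GTPase gene, fell from 5.17 to 1.19 CPM, and *Zic5*, a zinc finger gene of the early neural plate, rose from 7.69 to 13.5 CPM (edgeR adjusted p of 0.027 and 0.014).

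**Figure D5:**
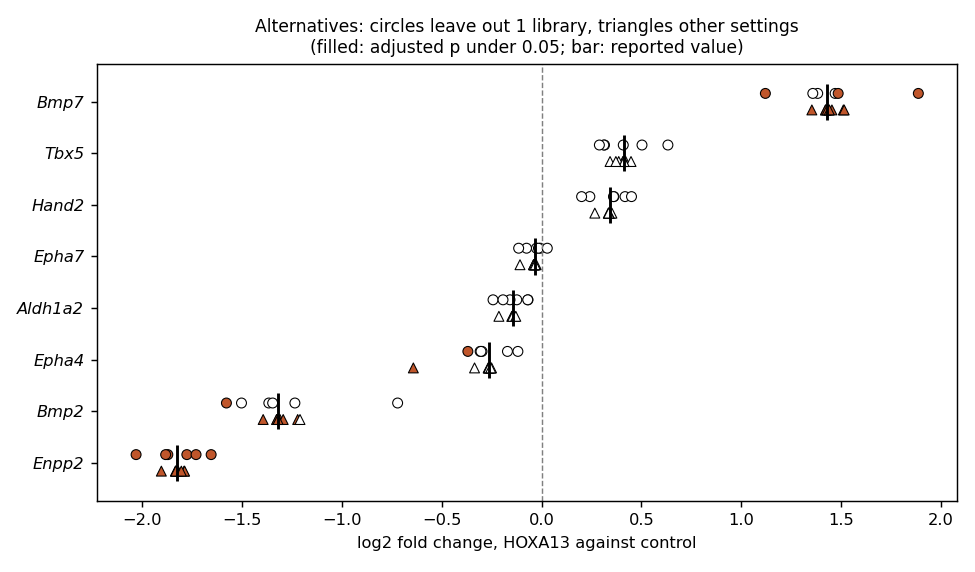
Log2 fold change of HOXA13 against control cultures (horizontal axis) of the 8 tested genes under 15 alternatives, as circles for fits without 1 library and triangles for other settings, filled for an adjusted p under 0.05, with the reported value as a bar. Enpp2 is filled throughout, Bmp7 in 12 of 15 and Bmp2 in 9 of 15, and Epha4 in 2.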

How the data were processed

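RNA-seq libraries of 3 control and 3 *HOXA13* cultures were grouped by their titles. The authors sequenced directional libraries, mapped reads to mm9 and counted them per gene. The submitters' processing notes name bcl2fastq 2.17, TopHat2 2.0.14 and HTSeq 0.6.1p1, while the paper's methods name another Tophat version. The deposited values are raw counts, 1 table per library, without lines for unassigned reads. Annotation, counting mode and strand setting are not given in the sources used here.

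Counts were fitted in edgeR 4.0.16 (R 4.3.3) on the whole table with filterByExpr defaults (minimum count 10, minimum total 15), TMM factors, and glmQLFit and glmQLFTest without covariates. Calls are at an adjusted p under 0.05 (Benjamini-Hochberg over all 13846 tested genes). The standard error is the absolute log2 fold change (prior count 0.125) over the square root of F. Floors of 3 counts cover counting error only. The paper names DESeq2, run here as an alternative (1.42.0), as was limma-voom (limma 3.58.1). The paper describes the replicates as biological, and where cultures were not separate, p-values measure technical spread. Pairs of control replicates differed by a chi-square of between 12.7 and 34.2 per degree of freedom, where 1 is sampling noise. Pairs of *HOXA13* replicates differed by between 1.895 and 6.03. On simulated counts for this comparison (13728 genes tested), 193 of 200 changed genes were recovered (94 changed by 2-fold and 99 by 4-fold), with 13 false calls. The simulated counts had the trended dispersion at each expression level, the same in both groups. These rates therefore need not hold for genes with a larger spread or a spread that differs between the groups.

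The 10 genes and the lists were chosen with earlier results of these data known. From each of 6 lists, at most 2 called genes with the largest log2 fold change in each direction are given with values, and other genes are named without tests of their own or because a result turns on them, chosen after their values were seen. Values of 1 gene that this rule takes are not reported here. Positions and exon lengths are from GENCODE vM1 on NCBIM37, which is mm9 (13558 of the tested genes, 97.9%, placed). Alternatives were RLE factors, library size alone, no filter, a minimum of 10 counts in all libraries, the replicate block, robust estimation, chromosome centring, each library left out, DESeq2 and limma-voom. Figures used matplotlib 3.10.9.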

Additional observations from a re-analysis of the deposited data

How the results depend on the processing

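Of the 10 genes, *Enpp2* kept its call in all 15 alternatives, *Bmp7* in 12 and *Bmp2* in 9, and *Tbx5*, *Hand2*, *Aldh1a2* and *Epha7* stayed above 0.05 in all. The log2 fold change of *Epha7* lay between -0.12 and 0.028 when 1 library was left out and was above 0 without *HOXA13* replicate 3, against -0.03 with all libraries, and the cause was not tested. Leaving out 1 library at a time gave between 2038 and 5007 called genes in all, between 1 and 3 of the 10 genes, and in the lists between 0 and 6 BMP ligands and receptors, between 4 and 10 Eph receptors and ephrins, between 3 and 7 limb bud regulators, between 3 and 7 retinoic acid genes, between 3 and 5 LPA genes and between 3 and 8 antagonists. Fits without a library have fewer samples. Of the 20 list genes that the naming rule takes, 8 kept their call in every alternative. The replicate numbers did not pair the samples, since deviations of same-numbered libraries correlated at -0.015, -0.045 and 0.018. With the replicate block, 3172 genes and 3 of the 10 genes were called, and not every sample correlated best with its own number. The marker lists were run under the alternatives after the data had been seen. The streak list gave between 0 and 8 called genes and the fibroblast list between 0 and 3. At these depths *Epha6* and *Sostdc1* lie at the limit of detection.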
